A study of Mus musculus with 16 samples.

Results

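Wnt signalling is tuned outside the cell by secreted proteins that block Wnts or their receptors and by R-spondins, which raise the response to Wnts. The genes described here are 10 of these, taken by symbol and by role with no cut on their values, though earlier results of these data were known. They are the secreted frizzled-related proteins Frzb, Sfrp1 and Sfrp2, the Dickkopf genes Dkk1, Dkk2 and Dkk3, and the R-spondins Rspo1, Rspo2, Rspo3 and Rspo4. Other secreted antagonists, such as Sfrp4 and Wif1, are counted apart below. All 10 were listed in both count tables, among 29629 genes in the single-cell table and 47729 genes in the tendon table.

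Single cells came from ScxGFP mouse iPSCs, a reprogrammed line from embryos with a GFP transgene under Scx regulatory sequence. Scx encodes Scleraxis, the transcription factor that marks tendon progenitors. The labels name no clone for the plates. The cells were kept on feeder fibroblasts, brought to mesoderm with CHIR99021, a GSK3 inhibitor that switches Wnt signalling on, and with cyclopamine, a Hedgehog inhibitor, and left without both before T0. T0 cells had no TGF-β2, and T3, T6 and T9 cells had 10 ng/ml TGF-β2 for 3, 6 and 9 days. Live cells were sorted into 3 plates of 384 wells per time point with no selection for GFP. No plates of equal age without TGF-β2 were analysed here, so time in culture and TGF-β2 cannot be told apart. Achilles tendon was taken from 14-day-old littermates, 2 wild type (Scx_Wt) and 2 lacking Scx on both alleles (Scx_homoKO). Tendon samples hold cells other than tenocytes, and fewer cells of a type cannot be told apart there from less RNA per cell.

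Secreted frizzled-related proteins carry a cysteine-rich domain like that of Frizzled receptors and bind Wnts before they reach the cell. Dkk1 and Dkk2 bind the co-receptors Lrp5 and Lrp6, with Kremen proteins as partners, while Dkk3 is a divergent family member whose link to Wnt receptors is less settled. R-spondins bind Lgr4, Lgr5 and Lgr6 and hold back the ligases Znrf3 and Rnf43, which otherwise clear Frizzled receptors from the cell surface. Dkk1 is itself a known target of β-catenin with TCF/LEF factors, and Wnt signals shape limbs and joints in the embryo.

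In the GRCm38 annotation (GENCODE), Frzb lies on chromosome 2 (80411970 to 80447625, minus strand), Sfrp1 on chromosome 8 (23411502 to 23449632, plus) and Sfrp2 on chromosome 3 (83766321 to 83774316, plus). Dkk1 lies on chromosome 19 (30545863 to 30549665, minus), Dkk2 on chromosome 3 (132085292 to 132180304, plus) and Dkk3 on chromosome 7 (112116017 to 112159057, minus). Rspo1 lies on chromosome 4 (124986430 to 125009099, plus), Rspo2 on chromosome 15 (43020794 to 43170826, minus), Rspo3 on chromosome 10 (29452416 to 29535867, minus) and Rspo4 on chromosome 2 (151842927 to 151874668, plus).

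RefSeq promoter windows (GRCm38.p6, 250 bases before the gene start) were matched for 6 of the 10 genes, Frzb, Sfrp2, Dkk1, Dkk2, Rspo1 and Rspo4. They were searched for TCAAAG, the core letters of TCF/LEF motifs, and for CTTTGA, the same letters on the other strand. The letters were found once in Frzb and at 2 places in Dkk1, and in none of the other 4 windows, against 13.8% of 32851 promoters. Frzb and Dkk1 are shown because their windows hold the letters. Both fell after T0, as described below, but so did Rspo4, whose window has none. Each stretch of 30 bases is printed along the gene's minus strand, 5′ to 3′, with the match in capitals, and each overlaps an exon in GENCODE. A match of 6 letters is a description of the sequence and not evidence of a bound site.
Frzb, chr2:80447474-80447503: tcccctgaaaacTCAAAGccttctcggaag
Dkk1, chr19:30549653-30549682: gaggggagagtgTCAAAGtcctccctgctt
Dkk1, chr19:30549596-30549625: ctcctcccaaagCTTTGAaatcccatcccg
The match began 95 bases before the RefSeq start in Frzb and 174 and 117 bases before it in Dkk1.

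Unique molecular identifiers (UMIs), which count each captured transcript once, were summed over the 4594 of 4608 wells with at least 200 detected genes. Plates held 1921125 to 4657093 UMIs, and the median well held 10175, 5703, 8794 and 7900 UMIs from T0 to T9. Levels in the plates are given as CPM, a gene's UMIs per 1000000 UMIs of the plate. Genes were tested with edgeR's quasi-likelihood test on the plate sums, and called genes are those under 0.05 after Benjamini-Hochberg adjustment over all genes tested. Fold changes come from that fit after TMM scaling, so they can differ from the ratio of 2 CPM values. The labels do not say whether plates of a time point came from separate cultures, so the p-values measure the spread between plates, which may be technical. Tenocyte markers ran with the labels: 10 of 10 were called higher at T3 than at T0, with 2 of them, Tnmd and Kera, at 0 in all T0 plates. UMIs of at least 3 of 8 pluripotency markers were present in 118 wells at T0, 15 after 3 days of TGF-β2, 6 after 6 days and 15 after 9 days. UMIs of at least 3 of 7 epithelial markers were present in 85, 6, 9 and 20 wells.

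All 9 members that passed the filter on low counts were called between T0 and T3, 6 higher and 3 lower, where 33.2% of 13372 genes were called, 17% higher and 16.2% lower. Sfrp1, Sfrp2, Dkk2, Dkk3, Rspo2 and Rspo3 rose, and Frzb, Dkk1 and Rspo4 fell. Rspo1 did not pass the filter. The antagonists and the R-spondins each had members on both sides.

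**Figure D1:**
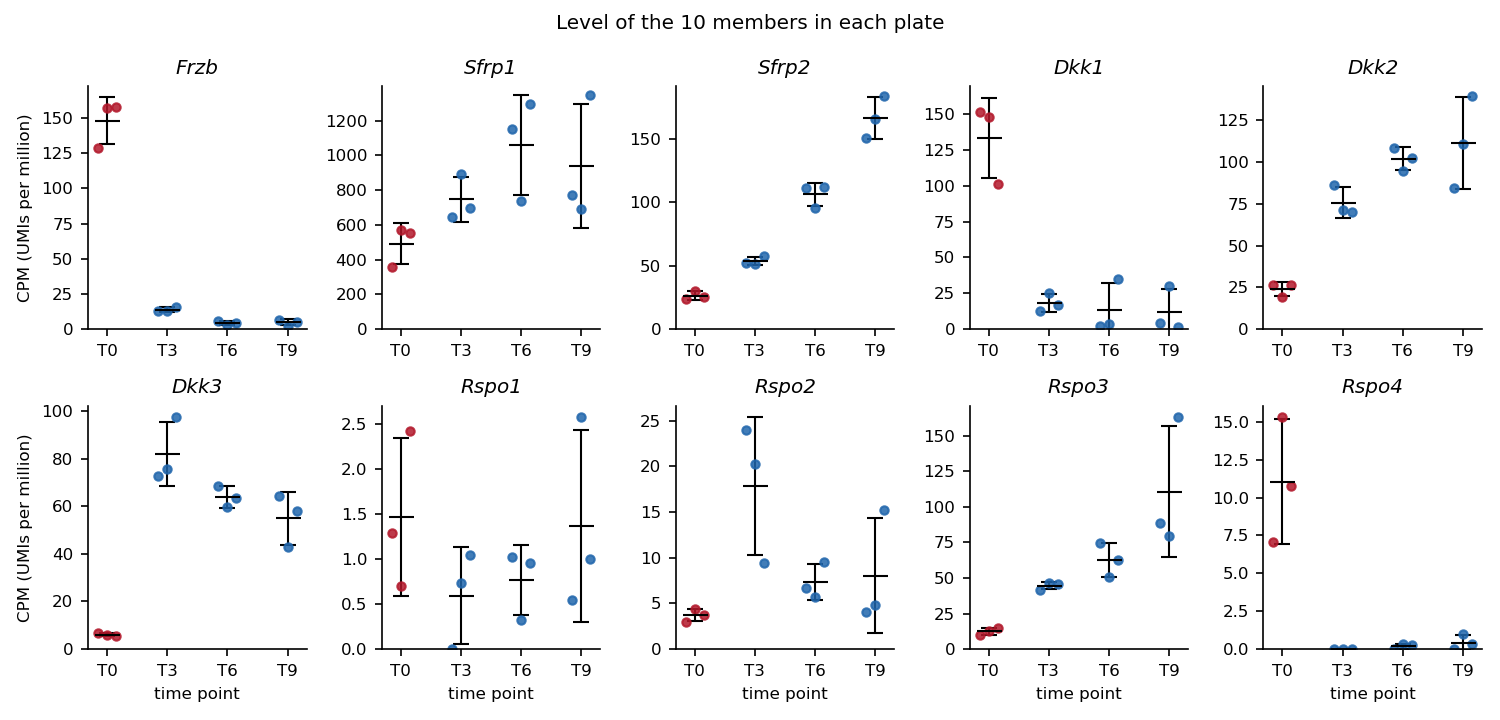
Level of each of the 10 genes in CPM (y axes, one scale per gene, from 0) in the 3 plates of each time point (x axis). Points are plates (red, T0; blue, T3 to T9), and the bar with whiskers is the mean with its SD. Frzb and Rspo4 lie near the bottom of their panels in every plate after T0, while Sfrp2 rises at each time point, from 26.5 CPM at T0 to 167 CPM at T9.

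Frzb, also known as sFRP3, is made by early chondrocytes and joint tissue. Its levels were 129, 157 and 158 CPM in the T0 plates, 13.0, 13.3 and 15.7 at T3, 5.63, 3.18 and 4.52 at T6, and 6.79, 2.57 and 5.31 at T9. Every T0 plate was above every later plate, and every T3 plate was above every T6 and T9 plate. Frzb fell by 3.17 ± 0.27 on the log2 scale from T0 to T3 (SE, n = 3 plates each, edgeR adjusted p = 1.01e-06), an 8.98-fold drop. It fell again by 1.64 ± 0.31 from T3 to T6 (edgeR adjusted p = 0.00822), and the change from T6 to T9 was 0.41 ± 0.34 (edgeR adjusted p = 0.573). Its UMIs were in 53.4% ± 4.4 of wells at T0 (SD, n = 3 plates) and in 2.70% ± 1.78 at T9.

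Sfrp1, a Wnt-binding antagonist made by many mesenchymal cells, had the most UMIs of the 10 genes at every time point, on a 3′ count that does not grow with transcript length. Its levels were 357, 569 and 552 CPM at T0, 646, 892 and 700.0 at T3, 1149, 736 and 1294 at T6, and 770.2, 693 and 1346 at T9. All later plates were above the T0 plates, and the later time points overlapped each other. The rise to T3 was 0.81 ± 0.22 (log2, edgeR adjusted p = 0.0132), and it was not called without plate T0-1 (edgeR adjusted p = 0.0537). Sfrp1 was 1.36 ± 0.23 higher at T9 than at T0 (log2, edgeR adjusted p = 0.000245). The spread at T3 to T9 followed a technical split: the 4 plates for which the study's mapping summary lists more reads without a feature ran from 892 to 1346 CPM, and the 5 plates with fewer from 646 to 770.2. The 3 T0 plates are all of the first kind, and with that split as a covariate Sfrp1 was 0.99 ± 0.19 higher at T3 and 1.53 ± 0.19 higher at T9 than at T0.

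Sfrp2, which acts on Wnts and on a procollagen-cleaving enzyme, rose at each step. Its levels were 23.8, 30.1 and 25.6 CPM at T0, 52.1, 51.6 and 57.5 at T3, 111, 95.8 and 112 at T6, and 150.5, 166 and 183 at T9. No plate of one time point overlapped those of another. The steps were 1.26 ± 0.19, 0.99 ± 0.18 and 0.89 ± 0.17 on the log2 scale (edgeR adjusted p = 0.000179, 0.00655 and 0.0218), and T9 was 8.82-fold above T0. The last step was not called with the replicate number as a block (edgeR adjusted p = 0.0581), nor without plate T6-1, T6-3, T9-1 or T9-2 (edgeR adjusted p = 0.0873 to 0.110), while its log2 value stayed between 0.83 and 0.89 in these fits.

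Dkk1, an antagonist that keeps Wnts from using Lrp5 and Lrp6, fell at the first step. Its levels were 151, 148 and 101 CPM at T0, 13.0, 25.1 and 17.1 at T3, 2.30, 3.82 and 34.7 at T6, and 4.62, 30.2 and 1.33 at T9. The T0 plates stood above all others, and a single plate stood apart at T6 and at T9. Dkk1 fell by 2.64 ± 0.83 from T0 to T3 (log2, edgeR adjusted p = 0.0257). That call was lost without T0-1, T0-2 or any T3 plate (edgeR adjusted p = 0.0510 to 0.0827), with log2 values of -2.77 to -2.54 in these fits. Other fits gave a firmer call. The edgeR adjusted p was 1.21e-06 with the 6 T0 and T3 plates alone, 5.73e-05 without the wells of both marker sets, and 0.00156 with wells thinned to 3000 UMIs. Dkk1 fell by 2.91 ± 0.85 from T0 to T9 (edgeR adjusted p = 0.0124), and this was not called without plate T9-1 (edgeR adjusted p = 0.0578). Its size depended on plate T9-2, without which Dkk1 fell by 4.94 (edgeR adjusted p = 0.000964).

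The late Dkk1 UMIs came from few wells. In plate T6-3, 1 well held 122 of 146 Dkk1 UMIs, and that well had UMIs of 6 of the 7 epithelial markers. In plate T9-2, 1 well held 66 of 94, with 4 of those markers. Wells with at least 3 epithelial markers held 139 of 167 Dkk1 UMIs at T6 and 99 of 115 at T9, at 571 and 306 CPM of their own UMIs. Wells with neither set of markers were at 2.56 and 1.71 CPM. At T0 the order was the other way, 24.1 CPM in the epithelial-marker wells and 155 CPM in wells with neither set. Without the wells of both marker sets Dkk1 also fell at the middle step, with a log2 value of -2.91 (edgeR adjusted p = 0.00322), against -0.41 ± 0.87 with all wells (edgeR adjusted p = 0.850). Between T0 and T9 Dkk1 then fell by 5.95 on the log2 scale (edgeR adjusted p = 2.85e-07).

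**Figure D2:**
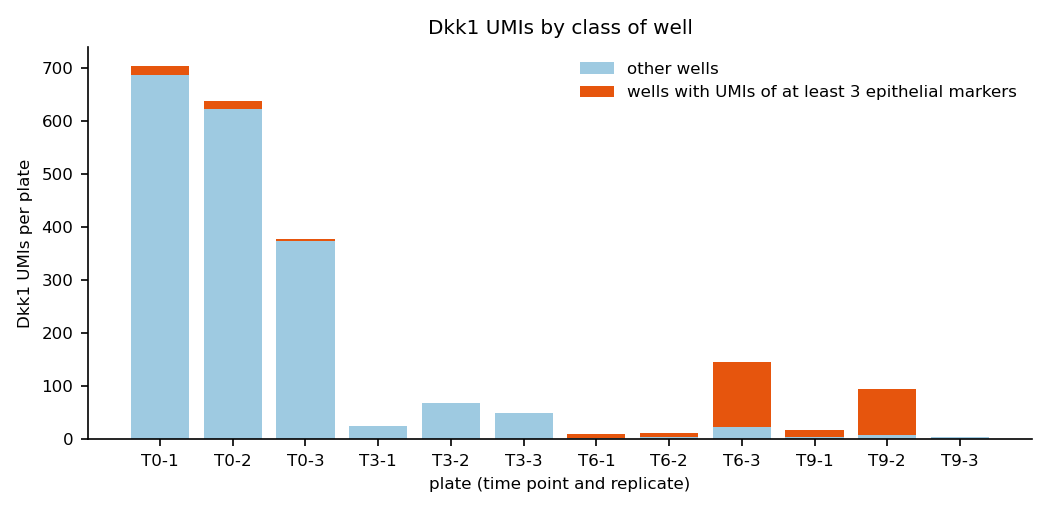
Dkk1 UMIs in each of the 12 plates (bars from 0), split into wells with UMIs of at least 3 epithelial markers (orange) and all other wells (blue). At T0 nearly all Dkk1 UMIs are in the other wells, while in T6-3 and T9-2 the epithelial-marker wells hold 124 of 146 and 86 of 94.

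Dkk2, which binds the same co-receptors as Dkk1, rose as Dkk1 fell. Its levels were 26.2, 19.5 and 26.6 CPM at T0, 86.4, 71.1 and 70.0 at T3, 109, 94.8 and 103 at T6, and 84.5, 111 and 139.6 at T9. The T0 plates lay below all others, and T9 overlapped both T3 and T6. The rise to T3 was 1.90 ± 0.21 (log2, edgeR adjusted p = 1.37e-05), and later steps of 0.43 ± 0.20 and 0.35 ± 0.20 were not called (edgeR adjusted p = 0.257 and 0.401). With the technical split as a covariate the step from T3 to T6 was called (0.52, edgeR adjusted p = 0.0496). UMIs of Dkk2 were in 14.0% ± 0.8 of wells at T0 and 36.2% ± 2.8 at T9 (SD, n = 3 plates).

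Dkk3, the divergent Dickkopf gene, had the steepest first step of the 6 that rose. Its levels were 6.66, 6.02 and 5.65 CPM at T0, 72.9, 75.5 and 97.6 at T3, 68.6, 59.5 and 63.3 at T6, and 64.4, 42.7 and 58.0 at T9. No T0 plate came near the later ones, and T6 and T9 overlapped. Dkk3 was 15.8-fold higher at T3 than at T0 (log2 3.98 ± 0.26, edgeR adjusted p = 7.85e-08). The later steps were -0.36 ± 0.22 and 0.04 ± 0.22 (edgeR adjusted p = 0.411 and 0.946).

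The 3 Dickkopf genes summed to 164 ± 26 CPM at T0, 176 ± 7 after 3 days of TGF-β2, 179.5 ± 21.3 after 6 days and 179 ± 23 after 9 days (SD, n = 3 plates). In plain CPM the later means thus differed from T0 by less than the SD at T0, while the make-up changed. These sums are not TMM-scaled, unlike the fits, where Dkk2 was 6.42-fold higher at T9 than at T0, against means of 112 and 24.1 CPM. Whether a scaled total moved was not tested. Without the marker wells the T0 sum was 191 CPM, and later sums without them are not given here. Dkk1 was the largest of the 3 at T0 and the smallest, by group means of CPM, at each later time point. Frzb, Sfrp1 and Sfrp2 together were at 667 ± 137, 814 ± 128, 1170.3 ± 299 and 1108 ± 371 CPM, mostly Sfrp1.

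Rspo3, an R-spondin with a role in vessel and limb growth, rose most among the R-spondins by T9. Its levels were 10.1, 12.5 and 14.8 CPM at T0, 41.6, 46.4 and 46.0 at T3, 74.5, 50.9 and 62.8 at T6, and 88.8, 79.6 and 163 at T9. The plates of successive time points did not overlap. The first step was 2.08 ± 0.22 (log2, edgeR adjusted p = 8.86e-06), the middle step of 0.49 ± 0.20 was not called (edgeR adjusted p = 0.202), and the last step was 1.02 ± 0.20 (edgeR adjusted p = 0.0209). The last call was lost with wells thinned to 3000 UMIs (edgeR adjusted p = 0.0522), in a fit of the 6 T6 and T9 plates alone (0.110), and without plate T6-1, T6-3 or T9-1 (0.0749 to 0.110). Rspo3 was 3.59 ± 0.22 higher at T9 than at T0 (log2, edgeR adjusted p = 2.48e-08).

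Rspo2, which is needed for limb and lung growth, stayed low. Its levels were 3.01, 4.40 and 3.77 CPM at T0, 23.9, 20.3 and 9.41 at T3, 6.65, 5.73 and 9.51 at T6, and 4.07, 4.82 and 15.3 at T9. T3 was above T0 in every plate, and T9 overlapped T0. The rise to T3 was 2.47 ± 0.45 (log2, edgeR adjusted p = 0.000850). The step to T6 was -1.26 ± 0.42 and was not called (edgeR adjusted p = 0.116), but was with no filter on low counts (0.0400) and with the technical split as a covariate (0.0292). Rspo2 was called higher at T9 than at T0 (1.49 ± 0.45, edgeR adjusted p = 0.0158), and this rested on plates T0-1 and T9-3 (edgeR adjusted p = 0.0601 with a log2 value of 1.33 without T0-1, and 0.127 with 0.90 without T9-3).

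Rspo4, known for its part in nail growth, had more than a few UMIs only at T0. Its levels at T0 were 7.09, 15.3 and 10.8 CPM, or 33, 66 and 40 UMIs. No UMI was found in the 3 T3 plates, and 2 UMIs were found at T6 and 4 at T9. Set against the floor of 3 UMIs over the 3 T3 plates, Rspo4 was at least 27.4-fold lower at T3 than at T0 (edgeR adjusted p = 0.000474), and 0 of 1151 wells allows a share of wells with a UMI of up to 0.261%. It fell by 4.16 ± 0.81 from T0 to T9 (log2, edgeR adjusted p = 0.00123). Rspo1 had 45 UMIs over all plates and was at or under 2.57 CPM in each. Floors and intervals here cover counting error only.

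Rspo1 to Rspo4 summed to 28.7 ± 6.3 CPM at T0, 63.2 ± 5.9 after 3 days of TGF-β2, 71.0 ± 12.6 after 6 days and 120.5 ± 51.7 after 9 days (SD, n = 3 plates). Over the later steps, 2 of 9 members were called from T3 to T6, Sfrp2 higher and Frzb lower, where 4.24% of genes were called, 2.61% higher and 1.63% lower. From T6 to T9, 2 of 9 were called, Sfrp2 and Rspo3, both higher, where 1.62% of genes were called, 0.935% higher and 0.688% lower. Between T0 and T9, a comparison that shares the T0 plates with the first step, 9 of 9 were called, 6 higher and 3 lower, where 45.2% of genes were called, 23.6% higher and 21.6% lower. Leaving out the wells of both marker sets left 9 of 9 called at T3 and at T9 against T0, and so did the technical split as a covariate.

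**Figure D3:**
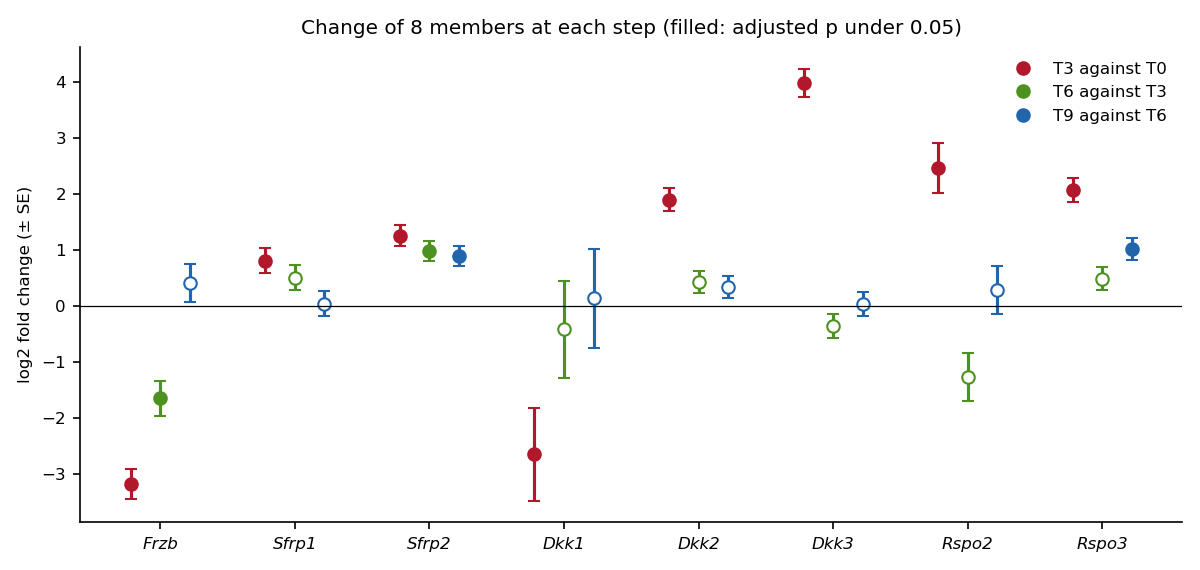
Log2 fold change with its SE (y axis) of 8 genes (x axis) at the first (red), middle (green) and last (blue) step. Filled circles are called at an adjusted p under 0.05. Rspo1 and Rspo4 are left out, the first for its low counts and Rspo4 for having no UMI at T3. All 8 are filled at the first step, Frzb and Sfrp2 at the middle step, and Sfrp2 and Rspo3 at the last.

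The share of wells with a UMI moved with the level for most members. Shares were higher in every T9 plate than in every T0 plate for 4 members, Sfrp2, Dkk2, Dkk3 and Rspo3, and lower for 3, Frzb, Dkk1 and Rspo4. With each well thinned to 3000 UMIs the mean share at T0 and T9 was 6.72% and 25.2% for Sfrp2, 6.92% and 20.4% for Dkk2, 1.96% and 11.9% for Dkk3, and 2.99% and 22.5% for Rspo3. It was 30.2% and 1.08% for Frzb and 21.3% and 0.713% for Dkk1. Wells with UMIs of at least 3 pluripotency markers, taken as a background class and with a median of 16143 UMIs at T0 against 9675 in wells with neither marker set, had Frzb UMIs in 37.3% against 57.4%, or 12.7% against 34.0% after thinning. Dkk1 was in 38.1% against 39.2%, or 15.3% against 22.7% after thinning. The background class also had the higher unthinned share for Sfrp1 (89.8% against 84.3%), Rspo4 (9.32% against 8.15%), Rspo2 (3.39% against 2.75%) and Rspo1 (5.93% against 0.714%). After thinning it had the lower share for Sfrp1 (50.0% against 69.3%) and Rspo4 (1.69% against 3.75%). It did not for Rspo2 (2.54% against 0.882%) or Rspo1 (0.847% against 0.331%). The Rspo2 and Rspo1 shares in wells with neither set were thus not above those of the background class. There, 4 of 118 wells had a Rspo2 UMI and 7 had a Rspo1 UMI.

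Within T0 the members were not spread evenly. Wells with a Dkk1 UMI held Dkk2 at 38.4, 29.8 and 45.1 CPM in the 3 plates, against 15.9, 9.52 and 18.1 in wells without. Dkk1 was at 209.6, 172 and 117 CPM in wells with a Frzb UMI, against 81.5, 106 and 79.5 in wells without. Wells with UMIs of Shisa3, an antagonist that holds Frizzled receptors inside the cell, had Dkk1 at 238, 294 and 144.6 CPM, against 123, 118 and 89.6 in wells without. At T3, wells with an Sfrp1 UMI had less Dkk3, at 52.5, 56.9 and 82.7 CPM against 115, 214 and 175. At T6 they had less Sfrp2, at 107, 78.1 and 108 CPM against 199, 221 and 293. Few wells were without Sfrp1 there, since 354 of 382, 333 of 384 and 366 of 383 had its UMIs. At T9 plate T9-2 went the other way, with Sfrp2 at 168 CPM in wells with Sfrp1 and 147 without. These pairs were named after their values were seen, went the same way in all 3 plates, and are descriptions of wells with no test. At T0, wells with pluripotency or epithelial markers were lower in Frzb, at 50.5 and 13.1 CPM against 175 in wells with neither set. The same held for Dkk1, at 70.5 and 24.1 against 155, and for Dkk2, at 6.00 and 1.38 against 29.1. The part of this mixture of cells in the T0 pairs was not tested.

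Sox9 encodes the transcription factor of chondrocyte fate, which progenitors of tendon attachment sites also make. At T0, where 593 wells had a Sox9 UMI and 554 had none, Dkk1 was at 178, 169.7 and 117 CPM with Sox9 and 114, 114 and 83.7 without. The difference was 0.56 ± 0.09 (log2, edgeR with the plate as a block, adjusted p = 0.00226), 1 of 8 members tested, where 0.538% of 10968 genes were called, 0.0729% higher and 0.465% lower. Median wells with Sox9 held 9745 to 12466 UMIs and those without 8513 to 10354, and with wells thinned to 3000 UMIs the difference was 0.96 (edgeR adjusted p = 7.75e-05). The call was lost without plate T0-1 (edgeR adjusted p = 0.0910), with no replicate block (0.741) and in DESeq2 (0.190). Markers of other cells moved with Sox9: 2 of 7 tested pluripotency markers, 1 of 5 epithelial markers and the 1 skeletal muscle marker tested were called lower. The summed levels were 332 to 645 CPM with Sox9 and 416 to 970 without for pluripotency markers, 198 to 268 and 290 to 386 for epithelial markers, and 21.5 to 53.0 and 36.0 to 91.7 for skeletal muscle markers. Without the wells of both marker sets, a choice made after seeing the data that left 515 wells with Sox9 and 466 without, the Dkk1 difference was 0.39 and was not called (edgeR adjusted p = 0.0594).

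Cells with a UMI of Scx, 933 wells at T3 and 447 at T9, were set against the 218 and 700 wells without. At T3, Dkk3 was at 88.2, 84.3 and 105 CPM with Scx and 16.9, 28.2 and 55.1 without. Dkk3 was 2.83-fold higher (SE 0.29 on the log2 scale, edgeR with the plate as a block, adjusted p = 0.0205), the only call among 8 members tested, where 0.426% of 8917 genes were called, 0.157% higher and 0.269% lower. The call was lost without replicate 1 (edgeR adjusted p = 0.0850) or replicate 2 (0.427), with no replicate block (0.409) and in DESeq2 (0.0561). Wells thinned to 3000 UMIs also gave a call for Sfrp1, lower with Scx (-0.52, edgeR adjusted p = 4.01e-05). Wells without Scx at T3 were richer in markers of other cells. With Scx, 4 of 5 tested pluripotency markers were called lower (65.7 to 86.8 CPM in sum, against 213 to 632), as were the 1 skeletal muscle marker tested (8.74 to 21.2 against 36.3 to 77.5) and 1 of 3 smooth muscle and pericyte markers (769 to 933 against 835 to 1806), and none of 7 tenocyte markers was called (5285 to 11024 against 4867 to 8920). Without the wells of both marker sets, which left 927 wells with Scx and 207 without, Dkk3 was 1.42 higher on the log2 scale and was not called (edgeR adjusted p = 0.145). Median wells with Scx held 4744 to 7043 UMIs at T3 and 7469 to 9704 at T9, and those without 4166 to 7013 and 6794 to 8408.

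At T9, Dkk3 was again higher in wells with Scx, at 85.8, 68.6 and 65.4 CPM against 43.5, 29.6 and 52.9. Dkk2 was lower, at 69.8, 85.7 and 106 CPM against 98.7, 124 and 163. The differences were 0.82 ± 0.18 and -0.56 ± 0.12 (log2, edgeR with the plate as a block, adjusted p = 0.0298 and 0.0263), 2 of 7 members tested, where 1.27% of 10228 genes were called, 0.939% higher and 0.332% lower. Both were lost without replicate 1 (0.359 and 0.171), and Dkk3 also without replicate 2 (0.0560) and Dkk2 without replicate 3 (0.0545). Neither was called in DESeq2 or with no replicate block, and Dkk2 not with thinned wells (0.178). Without replicate 3, Dkk1 (-1.86) and Sfrp1 (-0.26) were called lower with Scx. Dkk1 then rested on few UMIs, 1 with Scx and 16 without in T9-1, and 15 and 79 in T9-2. A single well with epithelial markers held 12 of 17 in T9-1, and another held 66 of 94 in T9-2. Of the marker lists at T9, 7 of 9 tested tenocyte markers were called higher with Scx (17216 to 45482 CPM in sum, against 12833 to 38699), as were 2 of 6 smooth muscle and pericyte markers (2846 to 4183 against 2047 to 3038) and 1 of 2 adipocyte markers (68.7 to 99.97 against 30.05 to 55.7). Called lower were 1 of 6 pluripotency markers (0 to 241 against 0.563 to 324) and 1 of 4 epithelial markers (4.85 to 79.98 against 30.9 to 101). Without the wells of both marker sets both members stayed called, Dkk3 at 0.78 and Dkk2 at -0.61 (edgeR adjusted p = 0.00809 and 0.00267). Dkk2 was on the other side at T3, 88.9, 74.7 and 78.7 CPM with Scx against 77.4, 51.7 and 19.2 without, a difference of 0.77 ± 0.29 that was not called (edgeR adjusted p = 0.427). The change of the Scx difference in Dkk2 between T3 and T9 was -1.31 ± 0.30 (edgeR adjusted p = 0.118), and it was called without plate T3-1 (-1.70, adjusted p = 0.00857), as was that in Dkk1 (-5.99 against -3.80 ± 0.93 with all plates). In the T3 wells without Scx, Dkk1 had 5, 1 and 0 UMIs in the 3 plates. Without T3-1 that class lay at the floor, so -5.99 is not a measured size. Without the wells of both marker sets the change was -1.19 for Dkk2 and -1.42 for Dkk1, and neither was called (edgeR adjusted p = 0.153 and 0.910). None of the 8 members tested was called for that change, where 0.132% of 11353 genes were, 0.106% higher and 0.0264% lower. Of the members, 2 had an unadjusted p under 0.05, and DESeq2 called 0.

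Tnmd encodes tenomodulin, a marker of mature tenocytes, and 155 wells at T9 had its UMIs and 992 did not. Dkk2 was at 42.4, 57.9 and 49.4 CPM with Tnmd and 95.8, 119 and 151 without. Sfrp1 was at 628, 222 and 922 CPM with Tnmd and 808, 762 and 1400.3 without. In every plate both were lower with Tnmd, with differences of -1.24 ± 0.20 for Dkk2 and -0.81 ± 0.17 for Sfrp1 (log2, edgeR with the plate as a block, adjusted p = 0.00551 and 0.0340), 2 of 7 members tested, where 1.05% of 10089 genes were called, 0.733% higher and 0.317% lower. Dkk3 was higher by 0.84 ± 0.20 and was not called (edgeR adjusted p = 0.0625), but was without replicate 2 (0.0269) and with at least 2 Tnmd UMIs (0.00319). The Dkk2 call was lost with thinned wells (0.362) and with no replicate block (0.318), and the Sfrp1 call with no replicate block (1.000) and in DESeq2 (0.671). Median wells with Tnmd held 7734 to 10040 UMIs and those without 7030 to 8743. Tenocyte markers were called higher with Tnmd in 7 of 9 tested (17570 to 50765 CPM in sum, against 13853 to 40388) and adipocyte markers in 1 of 2 (66.9 to 222 against 29.1 to 60.3), and no marker of the 11 lists was called lower. Without the wells of both marker sets Dkk2 and Sfrp1 stayed called (-1.24 and -0.80, edgeR adjusted p = 0.00520 and 0.0218). The part of the markers that moved in the splits by Scx, Tnmd and Sox9 was not tested beyond these fits.

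**Figure D4:**
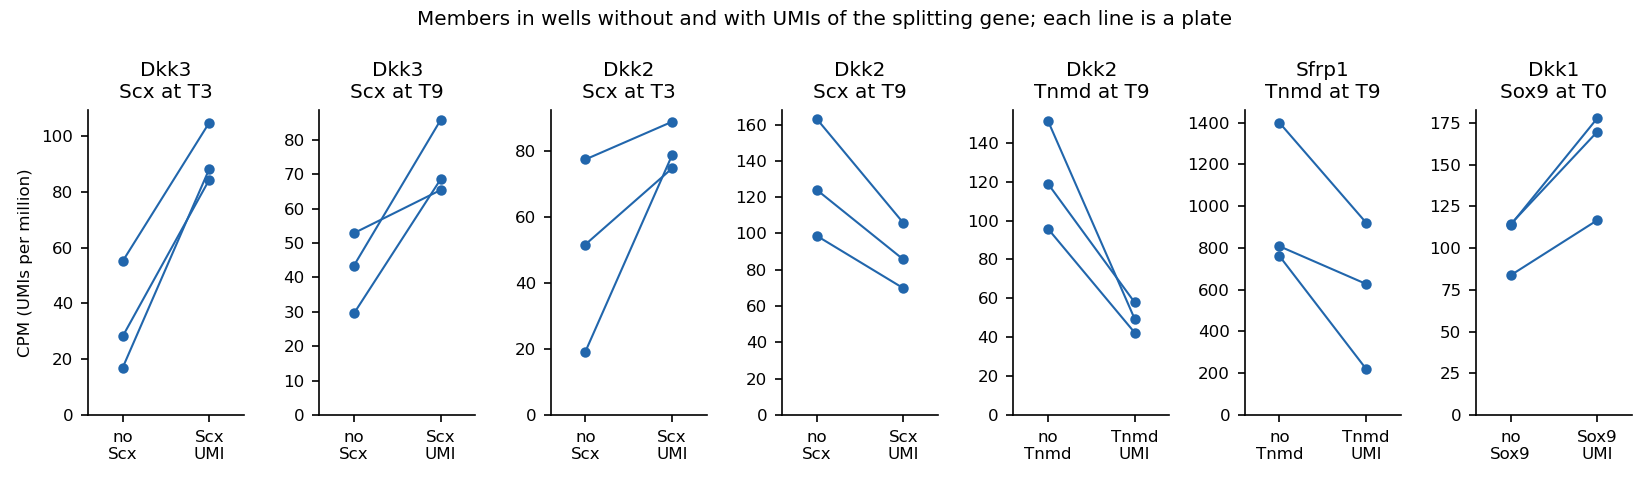
CPM (y axes, from 0) of a gene in wells without (left point) and with (right point) a UMI of Scx, Tnmd or Sox9, with a line for each of the 3 plates. Dkk3 rises with Scx at both times, Dkk2 falls with Scx and with Tnmd at T9 and not with Scx at T3, Sfrp1 falls with Tnmd, and Dkk1 rises with Sox9. The Dkk2 panel at T3 was not called.

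Over the 12 plates, the genes with profiles most like each member were found by the root mean square distance between mean-centred log2 CPM profiles, other members left out. Hapln1 was among the nearest to Frzb (0.41), and Chit1 among the nearest to Rspo4 (0.29). Dkk1 had no close match, with Gm21814 and Ascl2 at 0.82 and 0.98. Nearest to Sfrp1 were Pgm1 and Vasn, to Sfrp2 Ccn2 and Fos, to Dkk2 Sec24d and Tmed3, to Dkk3 Bhlhe40 and Mgarp, to Rspo2 Arhgef26 and Sema3c, and to Rspo3 Csgalnact1 and Dlk1, at 0.18 to 0.38. Likeness over 12 plates of 4 time points is a description.

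The other genes of the pathway were counted from 10 lists of 82 genes, of which 57 were tested in the plates. Between T0 and T9, 18 rose and 16 fell, where 45.2% of all genes were called, 23.6% higher and 21.6% lower. Among 5 tested Wnt ligands Wnt9a (2.10 ± 0.65), Wnt5a (1.69 ± 0.21) and Wnt11 (1.24 ± 0.43) rose and Wnt5b (-1.46 ± 0.57) fell, with edgeR adjusted p from 2.31e-05 to 0.0499. The Wnt acyltransferase gene Porcn (0.76) and the Wnt carrier gene Wls (0.47) both rose. Of 15 tested Frizzled and co-receptor genes 3 were called higher, Fzd4 (1.99), Fzd8 (1.81) and Lrp6 (0.65, with its plates given below). Another 5 fell, led by Fzd10 (-3.32), Ror1 (-2.18) and Fzd3 (-2.01).

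The receptors of R-spondins changed too. Lgr5 rose by 3.97 ± 0.35 and Lgr6 by 3.28 ± 0.74 between T0 and T9 (log2, edgeR adjusted p = 9.44e-07 and 0.00241), and the ligase gene Znrf3 fell by 1.22 ± 0.30 (edgeR adjusted p = 0.00441). Lgr6 had 22, 1 and 1 UMIs in the T0 plates and 19, 38 and 71 in the T9 plates. Plates T0-1 and T9-1 were thus close, at 4.72 and 5.16 CPM. Lgr4 and Rnf43 were not called, nor was Kremen1, whose protein is a partner in Dkk binding. The Dkk co-receptor genes Lrp5 and Lrp6 were counted with the Frizzled genes above, where Lrp6 was called higher. Lrp6 was at 116, 122 and 124 CPM in the T0 plates and 110, 87.7 and 227 in the T9 plates. Before TMM scaling, T9-1 and T9-2 thus lay below every T0 plate, and only T9-3 lay above. In the list of other secreted antagonists 3 of 3 tested genes were called higher: Sfrp4 (5.98), Wif1 (3.27), which binds Wnts, and Dkkl1 (2.34). Whether Dkkl1 acts on Wnts was not examined here. Sfrp4 had 1, 1 and 0 UMIs in the T0 plates and 37, 33 and 14 in the T9 plates. Wif1 had 0, 1 and 3 UMIs at T0, 6, 18 and 16 at T3, and 0, 13 and 11 at T9. Its T0 and T9 plates thus overlapped. Of 6 tested antagonists at the membrane or inside the cell, 4 rose, led by Tmem88 (2.26), Nkd2 (1.60) and Shisa2 (1.43), and Shisa3 fell (-3.31).

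In the cytoplasmic core 3 of 10 genes fell, Axin2 (-1.03), Apc (-0.90) and Gsk3b (-0.79), and none rose. Of 8 nuclear factors 4 fell, led by Lef1 (-4.34), Tcf7 (-2.05) and Bcl9 (-1.21). Among 9 tested common targets of β-catenin 3 rose, Lgr5, Nkd1 (1.11) and Myc (0.67), and 5 fell, led by Lef1, Ccnd1 (-2.83) and Tcf7. The median over these targets was -1.22, against -0.02 over all genes tested. At the first step 10 of the 57 genes rose and 13 fell, where 33.2% of all genes were called. At each later step none rose and 2 fell, and edgeR called none in any of the splits by Scx, Tnmd or Sox9, where 4 to 8 of the 38 to 47 genes tested per split had an unadjusted p under 0.05.

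Marker lists of other cells gave the setting of these changes. Pluripotency markers summed to 371 to 780 CPM in the T0 plates and 0.332 to 296 at T9, with 1 of 6 tested called lower at T9, and epithelial markers to 276 to 287 and 20.2 to 92.2 CPM, with 3 of 5 called lower. Chondrocyte markers, 52.1 to 59.0 CPM at T0 and 3.53 to 6.25 at T9, were called lower in 2 of 2, and smooth muscle and pericyte markers, 288 to 610.5 and 2317 to 3508 CPM, higher in 5 of 6. Endothelial markers were called higher in 2 of 2, adipocyte markers in 1 of 2, and Schwann cell markers in 1 of 4 with 1 lower. Markers of skeletal muscle, of macrophages and blood and of bone cells were not called. The part of these shifts in the members' changes was not tested.

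In the tendon table, levels are read counts or CPM of 11188270 to 12398560 counted reads per sample, tested with edgeR over 14602 genes. The targeted gene was checked first: Scx had 1151 and 996 counts in Scx_Wt and 287 and 296 in Scx_homoKO. It was lower in both knockouts, though reads remained, and which part of the gene the allele lacks was not given in the sources used here. Of the 8 members that passed the filter, 2 were called, Dkk2 lower and Rspo2 higher, where 3.84% of genes were called, 2.07% lower and 1.77% higher. Rspo1 and Dkk1 did not pass.

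Dkk2 had 831 and 828 counts in Scx_Wt and 265 and 202 in Scx_homoKO. The groups stood well apart, and Dkk2 fell by 1.84 ± 0.17 on the log2 scale (SE, n = 2 each, edgeR adjusted p = 0.000533), to 0.280 of the wild-type level. It was called without each sample in turn (edgeR adjusted p at most 0.00105). Dkk3 had 2676 and 2248 counts against 1924 and 2095, and its change of -0.29 ± 0.17 was not called (edgeR adjusted p = 0.432). Dkk1 had 3 and 0 counts in Scx_Wt and 0 in both Scx_homoKO samples, so no fold is given.

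Rspo2 had 4 and 5 counts in Scx_Wt and 54 and 58 in Scx_homoKO. Both knockout samples were above both wild types, and the rise was 12.2-fold (log2 3.60 ± 0.66, edgeR adjusted p = 0.0181). The call was lost without Scx_Wt 1 (edgeR adjusted p = 0.0620) or Scx_homoKO 2 (0.0610), with log2 values of 3.47 and 3.48. Rspo3 went the other way, with 107 and 129 counts in Scx_Wt and 54 and 43 in Scx_homoKO. Its change of -1.29 ± 0.35 was not called (edgeR adjusted p = 0.0865), though the groups did not overlap, and it was called with no filter on low counts (0.0238).

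Rspo4 had 5 and 3 counts against 16 and 26 (2.37 ± 0.91, edgeR adjusted p = 0.212). Rspo1 had 2 and 1 counts in Scx_Wt and 28 and 0 in Scx_homoKO, all but 3 of them in 1 library. That library, Scx_homoKO 1, also stood apart in Schwann cell markers, which summed to 7821 CPM there, 315 in Scx_homoKO 2, and 1228 and 1147 in Scx_Wt. Without it Rspo2 was as high (log2 3.72, edgeR adjusted p = 0.0432) and Dkk2 as low (-1.97, edgeR adjusted p = 0.00105). Summed, the R-spondins were at 10.5 and 11.3 CPM in Scx_Wt and 12.3 and 10.8 in Scx_homoKO, and the groups overlapped. Per kilobase of exon, Rspo3 and Rspo2 were at 3.25 and 0.0749 CPM in Scx_Wt and at 1.30 and 0.908 CPM in Scx_homoKO, as means of 2 samples.

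The frizzled-related genes were not called. Frzb had 173 and 260 counts in Scx_Wt and 165 and 139 in Scx_homoKO (-0.51 ± 0.26, edgeR adjusted p = 0.361). Sfrp1 had 262 and 167 against 329 and 247 (0.41 ± 0.26, edgeR adjusted p = 0.462). Sfrp2 had 858 and 591 against 717 and 876 (0.14 ± 0.22, edgeR adjusted p = 0.798), and its groups overlapped. As CPM per kilobase of exon, the order in wild-type tendon was Dkk3 at 62.9 ± 11.7, Sfrp2 at 29.01 ± 9.35, Dkk2 at 19.1 ± 1.3, Frzb at 5.66 ± 1.26, Sfrp1 at 4.24 ± 1.58 and Rspo3 at 3.25 ± 0.22 (SD, n = 2). Frzb and Sfrp1 overlapped, as did Sfrp1 and Rspo3, and the other neighbours among these 6 did not. Rspo4, Rspo2, Rspo1 and Dkk1 were at 0.146 or less.

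**Figure D5:**
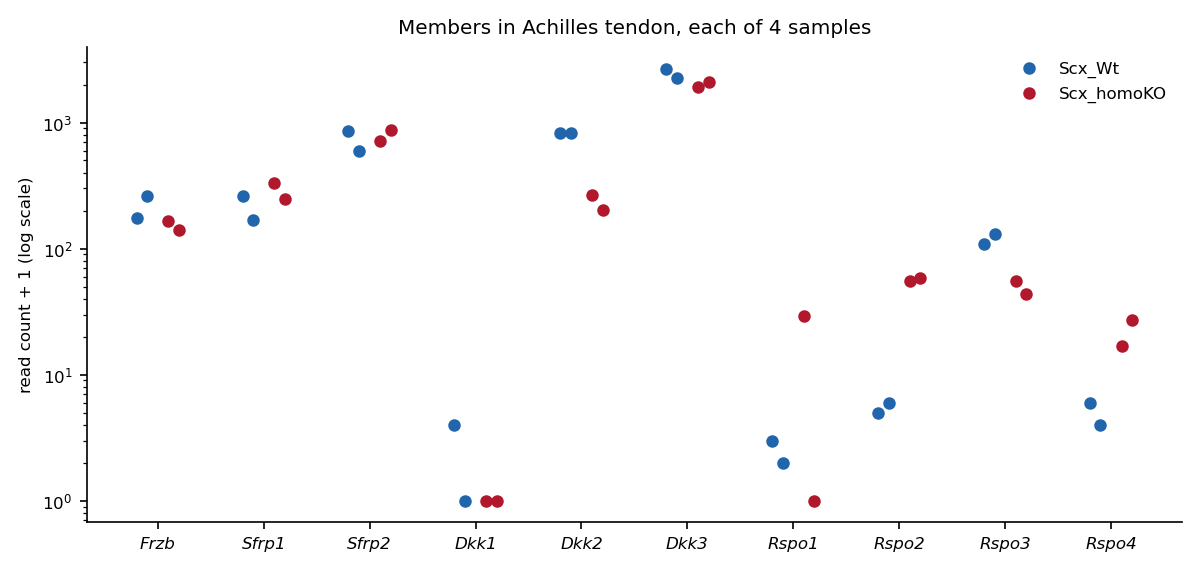
Read count plus 1 (y axis, log scale) of the 10 genes (x axis) in each Achilles tendon sample, Scx_Wt in blue and Scx_homoKO in red, 2 samples each. Dkk2 (828 and 831 against 202 and 265 counts) and Rspo2 (4 and 5 against 54 and 58) stand apart and are the called genes, and the single high Rspo1 point is Scx_homoKO 1.

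Of the other Wnt genes 61 were tested in tendon, and 1 rose and 3 fell, where 3.84% of all genes were called, 1.77% higher and 2.07% lower. Sfrp4, a frizzled-related gene of the same family, was at 39.1 and 18.1 CPM in Scx_Wt and 253 and 150.4 in Scx_homoKO (2.87 ± 0.33, edgeR adjusted p = 0.00158). Wif1 was at 312 and 293 CPM against 81.4 and 85.7 (-1.81 ± 0.15, edgeR adjusted p = 0.000284). The feedback antagonist Nkd2 fell by 1.55 ± 0.25 and the receptor gene Fzd4 by 0.83 ± 0.15 (log2, edgeR adjusted p = 0.00900 and 0.0150). With edgeR none of 9 tested Wnt ligands, 10 core genes, 7 nuclear factors or 7 targets was called, nor were the genes of Wnt secretion, the R-spondin receptors or Kremen1.

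Markers of several cell types moved with genotype. Tenocyte markers summed to 153067 and 166178 CPM in Scx_Wt and 72396 and 83453 in Scx_homoKO, with 6 of 10 called lower. Chondrocyte markers were at 728 to 796 CPM against 29.9 to 48.5, with 4 of 6 tested called lower, and Matn1 and Snorc at 0 in all samples. Adipocyte markers were at 1451 to 3294 against 567 to 908 CPM, with 3 of 6 lower, and endothelial markers at 805 to 807 against 504 to 604, with 1 of 6 lower. Skeletal muscle markers were at 33789 to 63519 against 81591 to 85000 CPM and none of 8 was called. One of 6 smooth muscle and pericyte markers and 1 of 2 tested pluripotency markers were called lower, and none of the epithelial, macrophage and blood, Schwann or bone cell markers. The part of these shifts in the changes of Dkk2 and Rspo2 was not tested.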

How the data were processed

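UMI counts per well of the 12 single-cell plates and read counts per gene of the 4 tendon samples were used as deposited. Per the labels, the authors aligned reads to GRCm38 with HISAT2 (2.2.1 for cells, 2.0.4 for tendon), counted genes with featureCounts (1.5.0 for tendon) and collapsed UMIs with UMI-tools 1.0.1. CEL-Seq2 captures 3′ ends, so UMIs do not scale with transcript length. Tendon reads carried no UMIs, so duplicates count there. Symbols came from GENCODE by Ensembl ID. Of 29632 single-cell entries, 3 named no gene (0.0642% of UMIs) and were left out. UMIs of wells with at least 200 genes were summed per plate, doublets and dead cells were gated out at the sort per the study's methods and none were removed here, and genes passing edgeR's default filter were tested with edgeR 4.0.16 (R 4.3.3, TMM, quasi-likelihood, Benjamini-Hochberg over all genes). All 12 plates shared a fit, and the tendon samples had their own. Wells split by a UMI of Scx, Tnmd or Sox9 were summed per plate and class with the plate as a block.

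The members and lists were chosen with earlier results of these data known. All 10 members are named, the 2 genes most alike in profile per member (some are not reported here), and per list up to 3 called genes with the largest change each way. Alternatives were DESeq2 1.42.0, RLE size factors, no filter, the replicate block, a technical split of plates, other well choices, thinning to 3000 UMIs, each sample left out and, added after seeing the data, splits without the marker wells. No 2 replicates agreed within sampling noise. Same-numbered plates did not all deviate together (r from -0.563 to 0.515), and the main fit took plates as unpaired. In tendon r was 0.0715, which with 2 samples a group cannot tell whether numbers pair samples. Scripts were tested on simulated data.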

Additional observations from a re-analysis of the deposited data

How the results depend on the processing

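Over 1094 alternative values of the 82 fold changes of members, 1007 kept direction and side of the threshold, 44 were no longer called, 12 became called and 31 changed sign, none of them of a called fold change and none called with the changed sign. From T6 to T9, Dkk1 was -0.0076 with the technical split, -0.23 without the marker wells and -0.14 thinned, and Dkk3 -0.10 with the split and -0.18 thinned (log2). With a plate left out Dkk1 ran from -2.53 to 0.072 from T3 to T6, and from T6 to T9 Dkk1 from -1.89 to 2.25, Frzb from -0.049 to 0.67, Dkk3 from -0.21 to 0.18, Sfrp1 from -0.085 to 0.17, Rspo4 from -0.058 to 1.86 and Rspo2 from -0.29 to 0.54. Sfrp2 in tendon ran from -0.11 to 0.45 over the samples left out. In the splits, leaving out a plate gave Frzb -0.71 to 0.70 for Scx at T3, Sfrp2 -0.14 to 0.11 and Sfrp1 -0.26 to 0.041 for Scx at T9, and Dkk3 -0.057 to 0.51 for Sox9. Thinning gave Sfrp2 0.0023 for Scx at T3, Dkk2 -0.059 and Sfrp1 -0.042 for Sox9, and -0.12 for Sfrp2 and 0.94 for Rspo2 in the change of the Scx split, while Sfrp2 for Scx at T9 was 0.0036 in DESeq2 and 0.017 with no replicate block. Leaving out the marker wells before the split, chosen after seeing the data, gave Sfrp1 -0.021 for Sox9, and 0 members called for Scx at T3 and for Sox9.

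All 9 members tested stayed called at T3 and T9 against T0 except where a plate was left out, as given above, and in DESeq2, which gave no adjusted p for Dkk1. DESeq2 called 899 genes from T3 to T6 and 579 from T6 to T9, where edgeR called 567 and 217, and no filter gave 1010 and 684. The technical split gave 1483 and 813 genes and 4 members from T3 to T6, and fits of the 6 plates compared gave 264 and 45 genes and 0 members from T6 to T9. Leaving out a plate gave 291 to 890 and 35 to 852 genes, and 0 to 2 members at the last step. Thinning left 1 member there.

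With the replicate block, 113 genes and 1 member were called from T6 to T9, and 1108 genes in tendon against 560, where no filter gave 1415. The block changed no other member's call. Leaving out a tendon sample left 1 to 2 members. In the splits, DESeq2 called 0 members for Scx at T3 and T9 and Sox9, and 1 for Tnmd, and with no replicate block 0 were called in each. Thinning gave 2 members for Scx at T3, 1 at T9 and 1 for Tnmd. Leaving out a plate gave 0 to 1 members for Scx at T3, 0 to 3 at T9 and 0 to 1 for Sox9, and 0 to 2 for the change between T3 and T9. The T0 sum of the Dickkopf genes was 191 CPM without the marker wells, which leaves out wells low in Dkk1. RLE factors moved the median log2 change by at most 0.02. The causes of the other shifts were not tested. Depth limits Rspo1 in both tables, Rspo4 after T0 and Dkk1 in tendon.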
